A study of Homo sapiens with 4 samples.

Results

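Hydroxysteroid dehydrogenases are oxidoreductases that interconvert hydroxyl and keto groups on steroids, and so set how much active hormone a cell holds. The account below covers 10 of them: HSD17B1, HSD17B2, HSD17B6, HSD17B8, HSD17B11, HSD17B12, HSD17B13, HSD17B14, HSD11B1 and HSD11B2. They were read on 4 microarrays of HepG2 cells, an established human hepatoma line, by every probe set whose platform annotation names that gene alone. This gave 17 probe sets for 9 of the 10 genes, out of 54675 probe sets and 19775 genes in all. No probe set was matched to HSD17B13, which is not analysed here. The genes were chosen with their values on these same arrays known, so those values are a description and carry no test.

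In the knockdown cells LSD1 was depleted with siRNA-1 on 1 array and with siRNA-2 on the other. LSD1, encoded by KDM1A, is a histone demethylase that acts in repressor complexes. The 2 control arrays came from cells transfected with an siRNA directed at GL3. All cells were grown in 25 mM glucose and 10% serum, transfected at about 50% confluence and collected after 4 days. The knockdown arrays held different siRNAs, so they stem from separate transfections and their spread includes any difference between the siRNAs. Whether the 2 control arrays stem from separate cultures is not in the labels, so p-values rest on a control spread that may be technical.

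These enzymes act on several kinds of substrate. Some members activate or inactivate oestrogens and androgens. HSD11B1 regenerates cortisol from cortisone, and HSD11B2 runs the opposite reaction and so shields the mineralocorticoid receptor from cortisol. Other members work mainly on lipids: HSD17B12 is the ketoacyl-CoA reductase of fatty acid elongation, HSD17B8 takes part in mitochondrial fatty acid synthesis, and HSD17B11 and HSD17B13 sit on lipid droplets.

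The authors' RMA values, read here as log2, were centred per probe set. A value is therefore a difference from the median of the 4 arrays, and levels cannot be compared between genes. KDM1A, the gene targeted, read -1.55 on the siRNA-1 array and -1.17 on the siRNA-2 array, against 1.23 and 1.17 on the control arrays. A rough class of brightness was recovered from the numeric step of the values: 8 or above, 4 to 8, or below 4, the last called dim. All 10 measured hepatocyte markers, among them ALB and APOA1, were in the brightest class, and their knockdown minus control differences ran from 0.08 to 0.95. Of 4 measured leukocyte markers CD14 was in the brightest class and CD3E was dim, and the differences ran from -0.26 to 1.31 with a median of -0.16, CD14 being the highest. Of 4 endothelial markers PECAM1 was in the brightest class (0.49) and VWF, CDH5 and TEK were dim, with a median of 0.11 over the list. Of 5 stellate cell or fibroblast markers COL1A1, DCN and PDGFRB were in the brightest class and LUM was dim, and the differences ran from -0.27 to 1.88 with a median of -0.13, COL1A1 being the highest. Of 5 steroid-producing gland markers CYP17A1 was in the brightest class and CYP11B1 and NR5A1 were dim, with differences from -0.44 to 0.78. Hybridization spike-ins also differed, with means of 0.61 and 0.65 on the knockdown arrays against -0.69 and -0.61 on the controls over 18 probe sets. The 5′ minus 3′ difference of the ACTB control probe sets was 0.61 lower on the knockdown arrays (-0.61). The part of these differences in the results below was not tested, and the design does not separate them from the knockdown.

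HSD17B6 had by far the widest range of the 9 measured genes, and it did so with siRNA-2. This enzyme oxidises androstanediols, which can return dihydrotestosterone from its inactive metabolite, and it also acts on retinol. Its probe set 205700_at read 0.07 on the siRNA-1 array and 4.26 on the siRNA-2 array, against -0.35 and -0.07 on the control arrays. The siRNA-2 array thus stood 4.47 above the control mean, nominally 22.2-fold on the linear scale. Both HSD17B6 probe sets were dim by the class, which follows the lowest of the 4 arrays, so the control level was not shown to be above background and the size of the fold is uncertain. On 205700_at the siRNA-1 array stood 0.29 above the control mean, close to the gap of 0.28 between the controls. The other probe set, 37512_at, read 0.14 on the siRNA-1 array and 4.04 on the siRNA-2 array, against -0.36 and -0.14 on the controls. That is 4.30 above the control mean with siRNA-2 (nominally 19.7-fold) and 0.40 with siRNA-1.

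Averaged over both siRNAs knockdown minus control came to 2.38 ± 1.43 (SE of the all-gene limma fit, n = 2 arrays per group). That standard error is wide because the knockdown arrays stood 4.19 apart, although KDM1A was lowered by both siRNAs (to -2.75 and -2.37 relative to the control mean for siRNA-1 and siRNA-2). Without the siRNA-2 array the HSD17B6 difference was 0.29. In bulk RNA, more cells expressing a gene and more RNA per cell cannot be told apart.

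The genes nearest to HSD17B6 by Euclidean distance over the 4 centred array values were MT1M (distance 1.29), SLC66A3 (1.55) and PRSS8 (1.57). MT1M, a metallothionein that binds zinc and copper, read -0.60 on the siRNA-1 array and 5.31 on the siRNA-2 array, against -0.05 and 0.05 on the controls. SLC66A3 read 0.43 on the siRNA-1 array and 2.80 on the siRNA-2 array, against -0.46 and -0.43 on the controls. PRSS8, a membrane-anchored serine protease, read 0.16 on the siRNA-1 array and 2.77 on the siRNA-2 array, against -0.16 and -0.52 on the controls. With 4 arrays, such nearness says little beyond a high value on the siRNA-2 array.

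**Figure D1:**
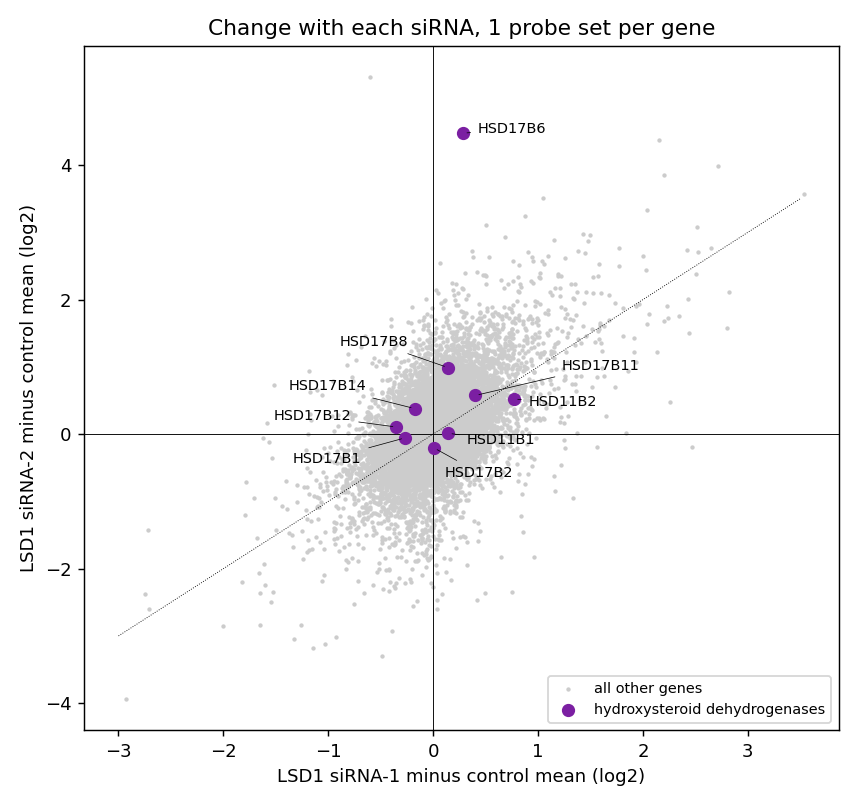
Each point is a gene, read by 1 probe set; the horizontal axis is the siRNA-1 array minus the control mean and the vertical axis the siRNA-2 array minus the control mean (both log2), with equality as the dotted line. HSD17B6 lies at 0.29 and 4.47, while the other 8 measured hydroxysteroid dehydrogenases (purple) lie inside the cloud of all genes.

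The remaining sex-steroid enzymes stayed nearer the controls. HSD17B1, which reduces oestrone to oestradiol, was read by 2 probe sets. On the brighter one, 228595_at, it read -0.24 on the siRNA-1 array and -0.02 on the siRNA-2 array, against 0.04 and 0.02 on the controls. Both knockdown arrays were below both controls there, by a mean of -0.16 ± 0.12 (SE, n = 2 arrays per group). The second, 205829_at, read -0.20 on the siRNA-1 array and 0.22 on the siRNA-2 array, against -0.02 and 0.02 on the controls, so the siRNAs lay on opposite sides.

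HSD17B2, which oxidises oestradiol and testosterone to weaker hormones, had 1 probe set. It read 0.03 on the siRNA-1 array and -0.18 on the siRNA-2 array, against -0.03 and 0.08 on the controls. The groups overlapped, and knockdown minus control came to -0.10 ± 0.13 (SE, n = 2 arrays per group).

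HSD17B14, a cytosolic enzyme that oxidises oestradiol, was read by 4 probe sets with letter suffixes, which can share sequence with other transcripts, and these did not give 1 picture. On 219113_x_at it read 0.23 on the siRNA-1 array and 0.50 on the siRNA-2 array, against -0.37 and -0.23 on the controls. On 224497_x_at it read 0.22 on the siRNA-1 array and 0.13 on the siRNA-2 array, against -0.28 and -0.13 on the controls. Both knockdown arrays were above both controls on these probe sets, by means of 0.66 and 0.38. On 224494_x_at the values were -0.19 on the siRNA-1 array and 0.37 on the siRNA-2 array, against 0.19 and -0.22 on the controls. On 228713_s_at they were -0.06 and 0.06, against 0.13 and -0.39 on the controls. The groups overlapped on these last probe sets, where the controls themselves stood 0.41 and 0.52 apart.

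HSD17B8 and HSD17B11 read higher on both knockdown arrays. HSD17B8 oxidises oestradiol and, paired with the protein of CBR4, forms the ketoacyl reductase of mitochondrial fatty acid synthesis. Its probe set read 0.03 on the siRNA-1 array and 0.88 on the siRNA-2 array, against -0.20 and -0.03 on the controls. The siRNA-2 array was 0.99 above the control mean (1.99-fold), and the siRNA-1 array only 0.14 above it, less than the gap of 0.17 between the controls. Knockdown minus control came to 0.57 ± 0.31 (SE, n = 2 arrays per group).

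HSD17B11, a lipid droplet protein that oxidises androstanediols, read 0.20 on the siRNA-1 array and 0.37 on the siRNA-2 array, against -0.20 and -0.20 on the controls. Here both siRNAs lay above both controls, whose values differed by 0.0004. A gap that small between 2 arrays is no measure of the usual spread. Knockdown minus control came to 0.49 ± 0.11 (SE, n = 2 arrays per group), a 1.40-fold higher level. The siRNA-1 array stood 0.40 above the control mean and the siRNA-2 array 0.58. HSD17B11 adjoins HSD17B13 on chromosome 4 in the RefSeq table.

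The stretch just before the transcript start is shown for the 3 measured members that have an entry in the RefSeq promoter table (GRCh38.p14): HSD17B8 and HSD17B11, higher on both knockdown arrays, and HSD11B1, whose groups overlapped. Each is 250 bases, 5′ to 3′ on the gene's strand, ending at the base before the start. HSD17B8 is at chr6:33204405-33204654 (plus strand), HSD17B11 at chr4:87391189-87391438 (minus strand) and HSD11B1 at chr1:209685929-209686178 (plus strand). Capitals mark matches, on either strand, to CCAAT (the CCAAT box) or GGGCGG (the GC box).
HSD17B8: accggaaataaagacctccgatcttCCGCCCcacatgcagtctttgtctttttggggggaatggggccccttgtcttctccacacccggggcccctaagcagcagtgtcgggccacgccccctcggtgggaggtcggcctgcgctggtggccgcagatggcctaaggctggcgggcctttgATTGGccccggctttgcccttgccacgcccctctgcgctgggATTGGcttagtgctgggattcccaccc
HSD17B11: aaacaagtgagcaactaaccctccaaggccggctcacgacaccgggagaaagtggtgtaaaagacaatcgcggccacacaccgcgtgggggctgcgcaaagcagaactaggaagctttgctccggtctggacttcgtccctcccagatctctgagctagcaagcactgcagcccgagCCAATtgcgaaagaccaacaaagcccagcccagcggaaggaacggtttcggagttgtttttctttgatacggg
HSD11B1: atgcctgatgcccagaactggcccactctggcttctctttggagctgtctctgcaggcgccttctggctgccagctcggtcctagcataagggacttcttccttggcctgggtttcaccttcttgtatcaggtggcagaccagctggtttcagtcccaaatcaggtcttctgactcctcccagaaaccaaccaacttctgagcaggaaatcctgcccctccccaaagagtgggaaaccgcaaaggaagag

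HSD17B8 holds 2 CCAAT matches and 1 GC box match, HSD17B11 holds 1 CCAAT match, and HSD11B1 holds neither. Of 35116 such windows in the table, counted without those on chr8, 32.0% hold CCAAT and 42.6% hold GGGCGG on either strand. The shares and the median below are over these same windows. None of the 3 windows holds TATAAA (the TATA box, in 10.7% of all windows) or CACGTG (the E-box, in 6.34%). Nor does any hold AGGTCA (core of nuclear receptor elements, in 12.1%) or AGAACA (core of the glucocorticoid receptor element, in 12.4%). The matches are letters only and say nothing of binding in these cells. G and C made up 64.8% of the HSD17B8 window, 56.0% of that of HSD17B11 and 55.2% of that of HSD11B1, against a median of 58.0% over all windows.

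HSD17B12, the elongation enzyme, gave different answers by probe set. On 217869_at it read 0.08 on the siRNA-1 array and 0.83 on the siRNA-2 array, against -0.08 and -0.09 on the controls, with both knockdown arrays higher. On 1554121_at it read -0.35 on the siRNA-1 array and 0.11 on the siRNA-2 array, against 0.01 and -0.01 on the controls. On 1554122_a_at the values were -0.24 on the siRNA-1 array and 0.34 on the siRNA-2 array, against -0.02 and 0.02 on the controls. These last probe sets put the siRNAs on opposite sides of the controls. On all 3 bright probe sets the siRNA-2 array exceeded the siRNA-1 array, by 0.46 to 0.75, whereas on the dim one, 1559518_at, it was the lower (-0.19). By the rule that picks 1 probe set per gene knockdown minus control came to -0.12 ± 0.18 (SE, n = 2 arrays per group), and the mean of the 4 probe sets gave 0.10.

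**Figure D2:**
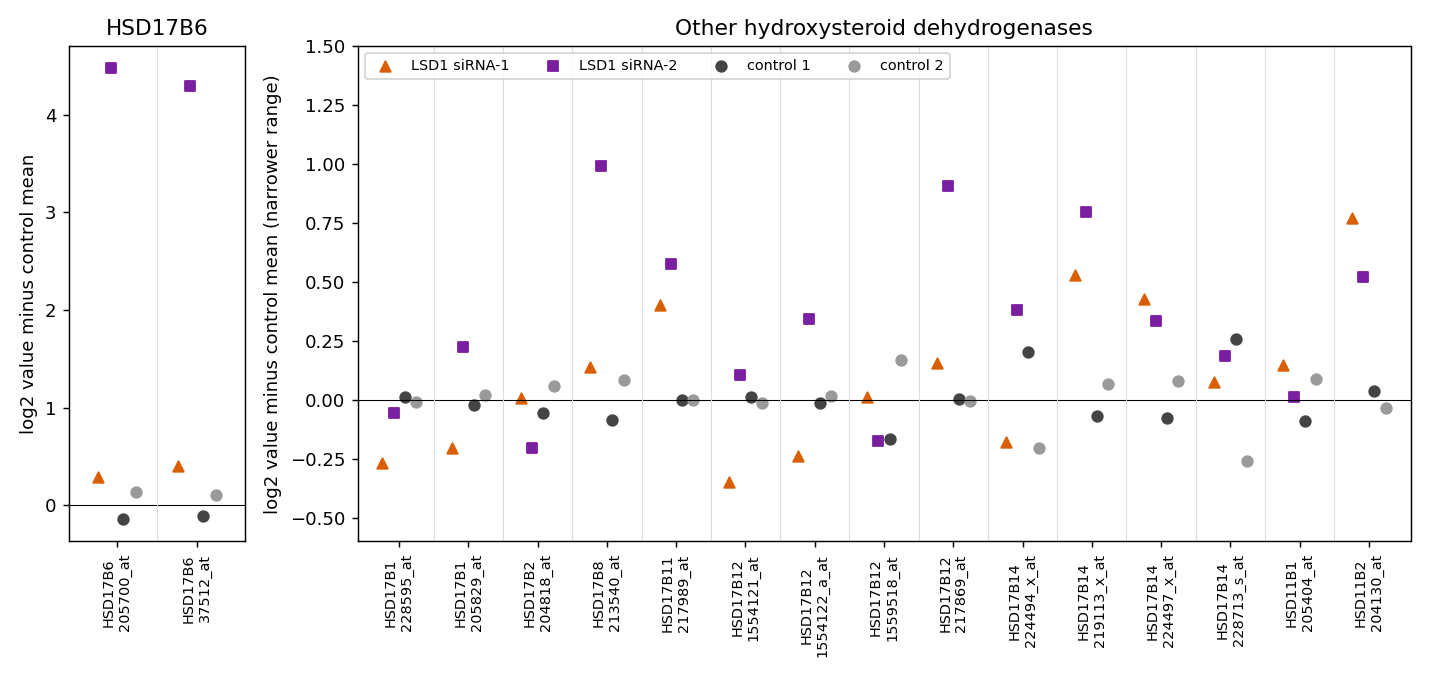
Log2 value minus the control mean for all 17 probe sets of the 9 measured genes on each of the 4 arrays, with HSD17B6 on its own, wider axis. HSD17B6 reaches 4.47 and 4.30 with siRNA-2, and among the other probe sets HSD17B8 (0.99), HSD17B12 217869_at (0.91) and HSD17B14 219113_x_at (0.80) are highest with siRNA-2.

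The pair that handles cortisol differed from each other. HSD11B2, the cortisol-inactivating enzyme, read 0.49 on the siRNA-1 array and 0.24 on the siRNA-2 array, against -0.24 and -0.31 on the controls. Both knockdown arrays were above both controls, and siRNA-1 gave the larger value (0.77 above the control mean, 1.71-fold; 0.52 with siRNA-2, 1.44-fold). Knockdown minus control came to 0.65 ± 0.13 (SE, n = 2 arrays per group). HSD11B1, the cortisol-regenerating enzyme and a hepatocyte gene in normal liver, had 1 dim probe set. It read 0.10 on the siRNA-1 array and -0.04 on the siRNA-2 array, against -0.14 and 0.04 on the controls, and the groups overlapped.

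By 1 probe set per gene, both knockdown arrays were above both controls in 4 of the 9 genes (HSD17B6, HSD17B8, HSD17B11, HSD11B2), below both in 1 (HSD17B1) and overlapping in 4. Over all genes 23.6% were above and 25.4% below. HSD17B12 alone had siRNA-1 below and siRNA-2 above both controls, as did 10.4% of all genes. By probe set, 8 of 17 were above, 1 below and 8 overlapping, and no share over all probe sets was computed. With siRNA-2, HSD17B6 alone among the 9 passed 2-fold over the control mean, as 3.93% of all genes did, and with siRNA-1 none of the 9 did, against 0.92% of all genes. The median difference was 0.10 over the 9 genes and -0.004 over all genes, and with siRNA-2 it was 0.38 against -0.02. Because the choice of genes used these arrays, nothing is read from these counts.

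The genes around these enzymes were described by 10 lists with 125 genes, of which 109 were measured. The lists, like the members, were chosen with earlier results of these data known. Their counts are thus a description, and no excess over all genes is read from them. The adjusted p-values do not allow for that choice. In the limma comparison of knockdown with control, 0 of the 109 genes passed (adjusted p under 0.05), as against 0.00506% of all genes. With siRNA-1 alone the fit passed no gene at all, not even KDM1A, which stood at -2.75 from the control mean. Not passing with siRNA-1 therefore does not show a lack of change. On the siRNA-2 array 25 passed above the controls and 12 below, against 13.2% and 10.1% of all genes. That test sets 1 array against 2, takes its spread from the 2 controls alone, and assumes that the single array varies like them; no second siRNA-2 array checks it. Over all probe sets the SD of the values was 0.38 on the siRNA-2 array and 0.20 on the siRNA-1 array, against 0.16 and 0.15 on the controls. Adjusted p-values quoted below for siRNA-2 are from that limma fit, in which the smallest that any gene reached was 0.0155, and they speak of that array.

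Both knockdown arrays were above both controls in 38 of the 109 genes (34.9%) and below in 23 (21.1%), against 23.6% and 25.4% of all genes. The siRNA-2 and siRNA-1 arrays lay apart past the same threshold in 17 of the 109, with siRNA-2 higher in 10 and lower in 7, against 6.78% of all genes (3.95% higher, 2.83% lower). With 1 array for each siRNA, this has no replicate check and does not show that the siRNAs differ. Each list count below is to be set beside the all-gene shares of 23.6% above and 25.4% below both controls. With few genes per list, no excess is read from any of them. From here on, a value given for 1 siRNA is that array minus the control mean, unless the arrays are named.

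Other hydroxysteroid dehydrogenases did not share 1 direction. Of 9 measured, 2 passed above the controls and 1 below on the siRNA-2 array, and 4 were above and 1 below both controls on both knockdown arrays. HSDL2, a peroxisomal protein of the same fold, read 0.59 with siRNA-2 (adjusted p = 0.0293), and 0.51 with siRNA-1. HSDL1, a related mitochondrial protein, read -1.25 with siRNA-2 (adjusted p = 0.0166), and 0.09 with siRNA-1. HSD17B7, which acts in cholesterol synthesis as well as on oestrone, read 1.09 with siRNA-2 (adjusted p = 0.0157), but its only probe set is an _x_at set, and a pseudogene copy exists. HSD17B4, of peroxisomal fatty acid oxidation, stood at 0.38 (siRNA-1) and 0.04 (siRNA-2), and HSD17B10, a mitochondrial enzyme, at -0.01 and -0.02; neither passed.

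Among the aldo-keto reductases and steroid 5-alpha reductases, which reduce steroids, 3 of 7 measured genes passed above the controls and 0 below on the siRNA-2 array. Both knockdown arrays were above both controls in 4 of the 7 and below in 1, and the list's median was 0.57 for siRNA-1 and 0.46 for siRNA-2. AKR1D1, the liver enzyme that reduces the double bond of steroid hormones and bile acid precursors, read 1.73 on the siRNA-1 array and 1.02 on the siRNA-2 array, against -1.02 and -1.17 on the controls. Its difference of 2.46 ± 0.27 (SE, n = 2 arrays per group) was a 5.51-fold higher level, which did not pass over both siRNAs (limma adjusted p = 0.138) and passed on the siRNA-2 array (adjusted p = 0.0155). AKR1C3, which makes testosterone from androstenedione, had a difference of 0.93 ± 0.10 (limma adjusted p = 0.142, n = 2 arrays per group) and read 0.98 with siRNA-2 (adjusted p = 0.0172). AKR1C2, which inactivates dihydrotestosterone, stood at 0.40 (siRNA-1) and 0.46 (siRNA-2) and did not pass. The AKR1C genes are close copies whose probes can cross-hybridise. SRD5A1, a reductase that makes dihydrotestosterone, read 0.95 with siRNA-2 (adjusted p = 0.0228), and -0.26 with siRNA-1; its other probe sets read 1.28 and 1.06 with siRNA-2.

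Steroid conjugation was represented by SULT2A1 and STS, which work in opposite directions on steroid sulphates. SULT2A1, the sulphotransferase of DHEA and bile acids, read 0.70 on the siRNA-1 array and 2.16 on the siRNA-2 array, against -0.70 and -0.89 on the controls. The siRNA-2 array was 7.76-fold above the control mean (2.96 on the log2 scale, adjusted p = 0.0155), and its other probe set lay above both controls on both knockdown arrays as well. STS, the sulphatase that frees them, read 0.64 on the siRNA-1 array and 0.46 on the siRNA-2 array, against -0.46 and -0.52 on the controls. Its value was 0.95 with siRNA-2 (adjusted p = 0.0185), and its 3 other probe sets spanned 0.49 to 1.37 with siRNA-2 and 0.69 to 1.30 with siRNA-1. PAPSS2, which makes the sulphate donor, stood at -0.31 (siRNA-1) and -0.07 (siRNA-2) and did not pass. In all, 2 of 12 measured genes of the list passed above the controls on the siRNA-2 array and 1 below (SUMF1, -0.52), and the median was 0.09. Both knockdown arrays were above both controls in 3 of the 12 and below in 0.

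In the list of steroid synthesis and electron donors 3 of 14 passed above the controls and 2 below on the siRNA-2 array, and 5 were above and 4 below both controls on both knockdown arrays. CYB5A, the haem protein that aids CYP17A1, read 0.60 with siRNA-2 (adjusted p = 0.0275), and 0.69 with siRNA-1, and all of its 3 other probe sets were higher with both siRNAs. POR, which passes electrons to microsomal cytochromes P450, stood at 0.50 (siRNA-1) and 0.30 (siRNA-2) and did not pass. FDX1, which passes electrons to mitochondrial steroid hydroxylases, read -0.77 with siRNA-2 (adjusted p = 0.0207), and TSPO, a mitochondrial outer membrane protein, read -1.14 (adjusted p = 0.0213). CYP11A1, the side-chain cleavage enzyme that opens steroid synthesis, read 1.24 (adjusted p = 0.0433) on a probe set whose controls stood apart at -0.06 and -0.45. G6PC3, a glucose-6-phosphatase, read 0.46 with siRNA-2 (adjusted p = 0.0433), and 0.18 with siRNA-1. H6PD, which supplies HSD11B1 with NADPH, stood at 0.13 (siRNA-1) and -0.33 (siRNA-2) from the control mean on its main probe set and did not pass. A pair of less bright H6PD probe sets went the other way with siRNA-2, at 0.60 and 0.88. With siRNA-1 they stood on the same side as the main probe set, at 0.55 and 0.31.

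The corticosteroid receptors lay on opposite sides of the controls on the siRNA-2 array. NR3C2, the mineralocorticoid receptor that HSD11B2 shields, read 0.22 on the siRNA-1 array and 1.30 on the siRNA-2 array, against -0.41 and -0.22 on the controls. The siRNA-2 array was 3.07-fold above the control mean (1.62 on the log2 scale, adjusted p = 0.0173), and siRNA-1 read 0.54. NR3C1, the glucocorticoid receptor, read 0.28 on the siRNA-1 array and -0.86 on the siRNA-2 array, against -0.01 and 0.01 on the controls. Its siRNA-2 value passed (adjusted p = 0.0185); 3 of its 4 other probe sets read -0.57 to -0.80 with siRNA-2, and the other one, 232431_at, read 1.02. SERPINA6, the plasma carrier of cortisol, read 0.63 with siRNA-2 (adjusted p = 0.0309), and 0.29 with siRNA-1. PGRMC2, a haem-binding membrane protein related to the progesterone receptor membrane component, read 1.16 (adjusted p = 0.0215). Of the 9 measured receptors and carriers 3 passed above the controls and 1 below on the siRNA-2 array, and 4 were above and 2 below both controls on both knockdown arrays.

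Of 14 measured glucocorticoid-induced genes, 7 were below both controls on both knockdown arrays and 2 above, against 25.4% and 23.6% of all genes. On the siRNA-2 array 2 passed above the controls and 2 below, and the list's median was -0.21 for siRNA-1 and -0.05 for siRNA-2. FKBP5, a receptor co-chaperone, read -1.31 with siRNA-2 (adjusted p = 0.0162), and -0.07 with siRNA-1, and its 2 other probe sets read -1.32 and -1.33 with siRNA-2. SGK1, a kinase induced by both corticosteroid receptors, read 1.79 with siRNA-2 (adjusted p = 0.0155), and 0.15 with siRNA-1. TSC22D3, encoding the glucocorticoid-induced leucine zipper, read 1.54 (adjusted p = 0.0155) on 1 probe set, while its 2 others read 0.06 and -0.07. IGFBP1, a secreted binding protein of insulin-like growth factors, read -1.93 with siRNA-2 (adjusted p = 0.0155), and -1.61 with siRNA-1. ANGPTL4, a secreted inhibitor of lipoprotein lipase, stood at -0.63 (siRNA-1) and -0.29 (siRNA-2) on 221009_s_at and did not pass. Its other probe set, 223333_s_at, of the same brightness class, read 0.38 (siRNA-1) and 0.03 (siRNA-2), and the groups overlapped there. ZBTB16, a zinc finger transcription factor read by a dim probe set, stood at -0.33 (siRNA-1) and -0.17 (siRNA-2) and did not pass.

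**Figure D3:**
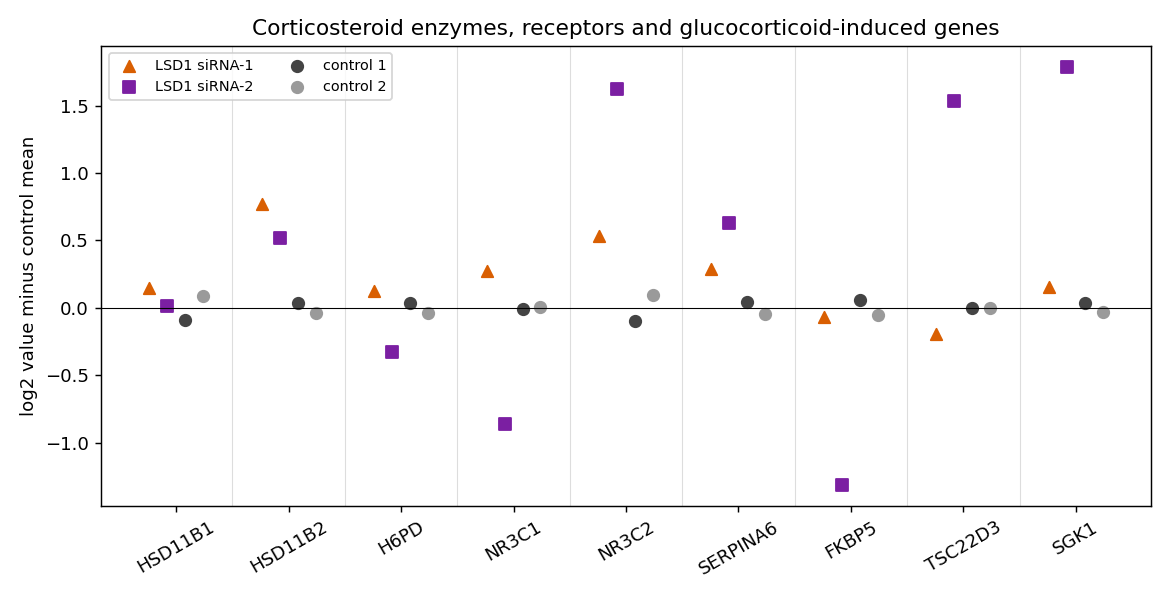
Log2 value minus the control mean on each of the 4 arrays for the enzymes, receptors and carrier of corticosteroids and for 3 glucocorticoid-induced genes, 1 probe set each. HSD11B2 is higher with both siRNAs (0.77 and 0.52), whereas NR3C1 (-0.86), NR3C2 (1.62), FKBP5 (-1.31), TSC22D3 (1.54) and SGK1 (1.79) stand farthest from the controls with siRNA-2.

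Partners of the lipid-acting members were mixed. In fatty acid elongation, the pathway of HSD17B12, 3 of 10 measured genes passed above the controls and 0 below on the siRNA-2 array, and 6 were above and 0 below both controls on both knockdown arrays. ELOVL6, which extends palmitate, read 1.40 with siRNA-2 (adjusted p = 0.0155), ELOVL7 1.20 (adjusted p = 0.0155) and ELOVL2, which extends polyunsaturated fatty acids, 0.70 (adjusted p = 0.0239). With siRNA-1 these read 0.39, 0.32 and 0.98. In mitochondrial fatty acid synthesis, the pathway of HSD17B8, 0 of 7 passed above the controls and 1 below, and 0 were above and 1 below both controls on both knockdown arrays. The gene that passed was CBR4, the partner of HSD17B8, which read -1.16 with siRNA-2 (adjusted p = 0.0157), and 0.28 with siRNA-1. Its other probe sets read 0.47 and -0.18 with siRNA-2, so the direction depends on the probe set. NDUFAB1, the mitochondrial acyl carrier protein, stood at -0.15 (siRNA-1) and -0.26 (siRNA-2), and OXSM, the ketoacyl synthase, at 0.04 and 0.16; neither passed.

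Among lipid droplet proteins, which share that site with HSD17B11, 3 of 14 passed above the controls and 3 below on the siRNA-2 array, and 5 were above and 5 below both controls on both knockdown arrays. PNPLA3 read 1.89 with siRNA-2 (adjusted p = 0.0155) and CIDEC, which enlarges droplets, 0.80 (adjusted p = 0.0250), with siRNA-1 values of 0.67 and 1.03. ABHD5, the activator of triglyceride lipase, read -0.79 with siRNA-2 (adjusted p = 0.0201), and -1.23 with siRNA-1. PLIN2, a droplet coat protein, read -0.88 with siRNA-2 (adjusted p = 0.0187). HILPDA, a lipase inhibitor, read 0.56 (adjusted p = 0.0436), and AUP1, a droplet surface protein, -0.48 (adjusted p = 0.0353).

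Among oxidoreductases of retinol and retinal, substrates that HSD17B6 and HSD17B13 also take, 4 of 13 passed above the controls and 1 below on the siRNA-2 array, and 5 were above and 2 below both controls on both knockdown arrays. RDH12 read 1.32 with siRNA-2 (adjusted p = 0.0155), ALDH1A1, which makes retinoic acid, 0.78 (adjusted p = 0.0220), DHRS3 0.72 (adjusted p = 0.0332) and RDH11 0.54 (adjusted p = 0.0338). RDH10, which oxidises retinol, read -1.25 with siRNA-2 (adjusted p = 0.0155). With siRNA-1, ALDH1A1 read 0.64 and the others read between -0.19 and 0.36.

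**Figure D4:**
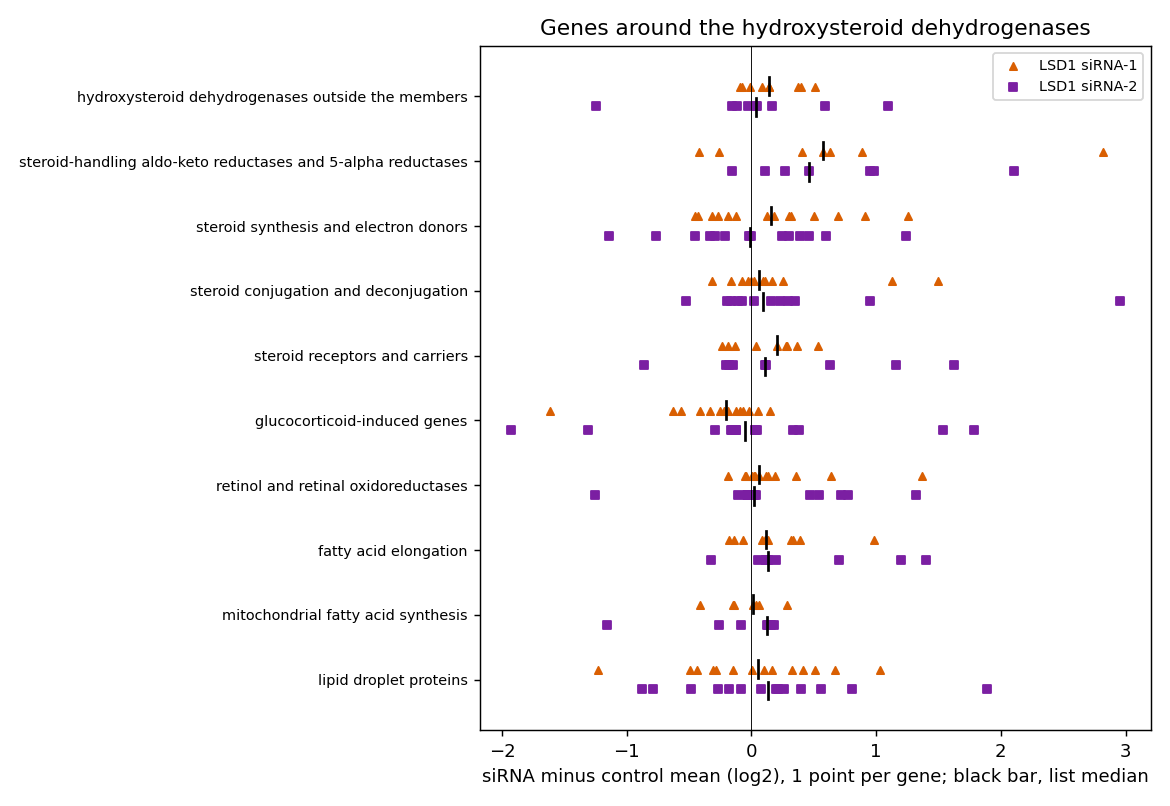
Difference of each siRNA array from the control mean (log2) for the 109 measured genes of 10 lists, 1 point per gene, with each list's median as a black bar. The highest points are SULT2A1 with siRNA-2 (2.96) and AKR1D1 with siRNA-1 (2.82), and the lowest is IGFBP1 with siRNA-2 (-1.93), while list medians run from -0.21 to 0.57.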

How the data were processed

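Expression was measured on Affymetrix arrays of 4 HepG2 samples, and groups and replicate numbers came from the sample titles. The authors made the deposited values, treated here as log2, by RMA, per the submitters' processing notes. No version or log base was found for it in those notes. Each probe set's median over the 4 arrays is 0 (largest deviation 5e-07), so levels are gone. An array gives no counts, and the number of arrays limits the precision. By numeric step, 26.4% of probe sets were classed as 8 or above, 37.4% as 4 to 8 and 36.2% as below 4; chance lifts about 1 in 8 by a class.

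Among 54675 probe sets, 41097 name a single gene, 1801 name several (left out) and 11777 are unnamed here; symbols were updated through the RefSeq table (19735 of 19775 genes matched). A single probe set stood for each gene: the brightest by class, with ties going to those lacking a letter suffix and then by identifier. limma 3.58.1 in R 4.3.3 was fitted over all genes (2 groups, and 3 groups for single siRNAs; two-sided, Benjamini-Hochberg, threshold 0.05) and tested on simulated data. The members and lists were chosen with earlier results of these data known. Named from each list were the 3 genes with the smallest p, up to 3 more called with either siRNA, the direct partners of members, and the chromosomal neighbours of members. The other settings tried were probe set choice, dim genes, array centring, robust moderation, a replicate block and leaving out each array. The labels do not say whether equal replicate numbers pair the samples, and the main fits took them as unpaired. Deviations of same-numbered arrays correlated at 0.04 over genes. The knockdown arrays held different siRNAs, so this value cannot show whether samples were paired.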

Additional observations from a re-analysis of the deposited data

Results flagged for a closer look

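On 3 probe sets of the hydroxysteroid dehydrogenases the siRNA-1 array lay below both controls and the siRNA-2 array above both, as in 10.4% of all genes. The siRNA-2 minus siRNA-1 difference was 0.43 for HSD17B1 (205829_at), and 0.46 (1554121_at) and 0.58 (1554122_a_at) for HSD17B12. These differences were not tested.

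For 14 of the 47 genes named from the surrounding lists the siRNA-2 and siRNA-1 arrays lay apart past the limma threshold. Some of the 47 were named because they passed on the siRNA-2 array, so their share cannot be set against that of all genes. Over the lists it was 17 of 109 measured genes, against 6.78% of all genes. The comparison of the siRNAs sets 1 array against 1, with the spread taken from the 2 controls. It has no replicate check and does not show that the siRNAs differ. Over all genes the count ran from 607 to 3223 with the processing. Above siRNA-1 on the siRNA-2 array were TSC22D3 (1.73), SGK1 (1.64), SULT2A1 (1.46), PNPLA3 (1.22), SRD5A1 (1.21), ELOVL6 (1.01), RDH12 (0.96), ELOVL7 (0.88) and HSD17B7 (0.69). Below it were CBR4 (-1.44), HSDL1 (-1.34), FKBP5 (-1.24), NR3C1 (-1.14) and RDH10 (-1.06).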

How the results depend on the processing

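HSD17B6 read 2.38 from all 4 arrays, 4.47 without the siRNA-1 array and 0.29 without the siRNA-2 array. HSD17B12 (-0.35 to 0.11), HSD17B14 (-0.18 to 0.38), HSD17B2 (-0.20 to 0.01) and HSD11B1 (-0.01 to 0.17) changed sign when 1 array was left out. HSD17B8 ran from 0.14 to 0.99. All 62 recomputed differences of members moved by less than 1 SD within groups, but with 2 arrays per group leaving out 1 cannot exceed that SD, so this says nothing of stability. The count of members above both controls (4) was 5 to 6 with 1 array left out, and that of list genes (38) was 46 to 59, highest without the siRNA-1 array. The count of list genes below both controls (23) was 26 to 39, at 39 without the siRNA-1 array and 38 without the siRNA-2 array. Leaving out an array can only keep or raise such counts, so these rises say nothing of stability. For knockdown against control, limma called 1 gene (2878 at an unadjusted p under 0.05). It called 0 with probe sets averaged, without dim genes, with robust moderation and with the replicate block (2854, 2487, 2815 and 2201 unadjusted). With 1 array left out it called 0 to 4599, the highest without the siRNA-1 array. With siRNA-1 alone it called 0 (5260 unadjusted), but 112 with the mean of probe sets and 793 with arrays re-centred on their medians. The difference between the siRNAs called 1341 genes, and 2939 when dim genes were dropped, 2108 when probe sets were averaged, 607 without _x_at and _s_at probe sets and 3223 with re-centred arrays. The cause was not tested. With siRNA-2 alone, the counts (3114 to 5619) stayed within 1.5 times of 4599. Single-siRNA fits leave no spread when a control is left out and were not run.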

Other observations

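Genes next to the hydroxysteroid dehydrogenases on the chromosome were read from the RefSeq table, taking the nearest measured protein-coding gene on each side. Of 18 such neighbours, 4 were above and 6 below both controls on both knockdown arrays, against 23.6% above and 25.4% below over all genes, and their siRNA-2 values ran from -0.78 to 0.94. Beside HSD17B6 on chromosome 12, PRIM1, a DNA primase subunit, stood 0.10 (siRNA-1) and 0.82 (siRNA-2) above the control mean, and SDR9C7, a dehydrogenase of the same superfamily, stood 0.02 and 0.11 above it. Beside HSD17B11 on chromosome 4, NUDT9 stood at -0.10 (siRNA-1) and -0.31 (siRNA-2), and KLHL8 at -0.08 and -0.44, while HSD17B11 itself lay above the controls. With siRNA-2, NAGLU (0.94) and COASY (-0.78) stood beside HSD17B1, SDR42E1 (-0.07) and HSBP1 (-0.39) beside HSD17B2, and SLC39A7 (0.06) and RING1 (0.37) beside HSD17B8. TTC17 (0.12) and ALKBH3 (-0.39) stood beside HSD17B12, and BCAT2 (-0.08) and PLEKHA4 (0.04) beside HSD17B14. G0S2 (-0.07) and TRAF3IP3 (-0.03) stood beside HSD11B1, and ZDHHC1 (0.28) and ATP6V0D1 (-0.06) beside HSD11B2.

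Of 47 genes named from the lists, 26 had further probe sets, 51 in all, and 37 of these had the same direction with siRNA-2 as the probe set used. Among those that were not dim, 29 of 35 did.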
